A study of Homo sapiens with 15 samples.

Results

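A set of 9 genes for transcription, 3' end processing and decay of histone mRNA was followed through depletion of CDK2 in a neuroblastoma line. The members are SLBP, NPAT, CASP8AP2, LSM10, LSM11, ZNF473, ERI1, CPSF3 and SYMPK. They were grouped by their known role, with earlier results of these data in view, and every probe set that names only 1 of these genes was taken. That gave 20 of the 54675 probe sets on the array for the 9 genes, and 17 of the 20 passed the filter on low signals. The brightest of them stood for the gene, so that the members made up 9 of the 11774 genes tested. For SLBP, LSM10 and CPSF3 it was the only probe set naming that gene alone, so no other probe set could be set beside it.

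The cells were IMR32, an established human neuroblastoma line with amplified MYCN. The clone used carries the tetracycline repressor behind a CMV promoter and a hairpin construct aimed at nucleotides 546 to 566 of the CDK2 mRNA, and 100 ng/ml doxycycline switches the hairpin on. All groups carry both constructs in 10% fetal calf serum and differ only in the time of induction, 0, 8, 24, 48 or 72 h, with 3 Affymetrix U133 Plus 2.0 arrays each and 15 arrays in all. No unit stands beside the times in the labels, and hours were taken from what is known of the study. The groups hold 1 clone and 1 hairpin, with no arm at the later times that lacked doxycycline, so doxycycline itself, time in culture and the loss of CDK2 cannot be told apart in what follows. Whether the arrays of 1 time are separate cultures is not in the labels, so p-values reflect only how these arrays spread, and the number of arrays limits the precision.

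Histone mRNAs of dividing cells end in a conserved stem-loop rather than in a poly(A) tail. In nuclear histone locus bodies, NPAT switches on histone transcription after phosphorylation by cyclin E with CDK2, and CASP8AP2 (also called FLASH) recruits the cleavage machinery. SLBP binds the stem-loop, the U7 snRNP with its LSM10 and LSM11 proteins pairs with the sequence downstream, ZNF473 (ZFP100) bridges them, CPSF3 cuts on the scaffold of SYMPK, and ERI1 trims the stem-loop end and starts its decay. The arrays measure RNA, and neither the phosphorylation of NPAT nor any protein was measured.

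RefSeq promoter windows, from 250 bases before to 50 after the annotated start on GRCh38.p14, were at hand for 7 of the 9 members, all but ERI1 and ZNF473. The windows of SLBP (chr4:1712270-1712569, minus strand), CASP8AP2 (chr6:89829630-89829929, plus strand) and NPAT (chr11:108222589-108222888, minus strand) are shown because the first pair belong to the members with the largest falls and a rise or fall of NPAT was not called at any time. They are written in the direction of transcription with matches to the motifs searched in capitals.
SLBP: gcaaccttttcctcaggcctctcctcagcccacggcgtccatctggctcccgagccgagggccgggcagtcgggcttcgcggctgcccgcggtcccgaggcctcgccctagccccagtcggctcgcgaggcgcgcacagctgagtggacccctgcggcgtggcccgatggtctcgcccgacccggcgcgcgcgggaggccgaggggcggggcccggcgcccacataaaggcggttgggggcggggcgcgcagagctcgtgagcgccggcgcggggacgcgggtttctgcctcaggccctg
CASP8AP2: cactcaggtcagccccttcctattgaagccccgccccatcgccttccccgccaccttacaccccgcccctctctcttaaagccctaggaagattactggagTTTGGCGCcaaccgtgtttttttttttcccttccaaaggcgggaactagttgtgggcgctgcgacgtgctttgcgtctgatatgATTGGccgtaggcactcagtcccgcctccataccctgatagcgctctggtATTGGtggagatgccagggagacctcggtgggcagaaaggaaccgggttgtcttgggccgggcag
NPAT: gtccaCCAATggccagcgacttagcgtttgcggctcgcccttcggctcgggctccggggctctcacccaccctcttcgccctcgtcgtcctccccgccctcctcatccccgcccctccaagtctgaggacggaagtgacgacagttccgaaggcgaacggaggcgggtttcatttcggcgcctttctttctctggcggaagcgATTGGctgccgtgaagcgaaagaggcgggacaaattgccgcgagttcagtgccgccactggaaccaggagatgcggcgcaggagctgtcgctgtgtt

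Both strands were searched for 4 forms of the E2F site (TTTCCCGC, TTTGGCGC, TTTCGCGC and TTTGCCGC), for the CHR element of cell-cycle genes (TTTGAA) and for the CCAAT box. The CASP8AP2 window holds TTTGGCGC at -149 to -142 from the start and the CCAAT box, read on the opposite strand, at -65 to -61 and -15 to -11. The CPSF3 window (chr2:9423404-9423703, plus strand) holds TTTGGCGC at -218 to -211. Of all 35116 windows 3.31% hold any of the 4 E2F forms and 0.652% hold TTTGGCGC. In the NPAT window the CCAAT box lies at -245 to -241 and, on the opposite strand, at -47 to -43, and 34.6% of all windows have that box. The SLBP window has none of these letters, and its GC content of 76.7% compares with a median of 58.7% over all windows. LSM10 has 1 CCAAT box at -101 to -97, LSM11 has 1 CHR match at 33 to 38, a motif found in 15.2% of windows, and SYMPK has none of the motifs. These matches describe the letters of the windows and are not known to be bound sites.

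All arrays had the same trimmed mean of 100.01, and the 3' to 5' signal ratio of GAPDH ranged from 0.974 to 1.07 and that of ACTB from 1.10 to 1.35. The CDK2 probe set fell from 231.7 ± 16.3 (SD, n = 3) at 0 h to 94.5 ± 5.56 by 8 h and had reached 30.1 ± 9.90 by 72 h, a log2 change of -2.45 (SE 0.14, limma, adjusted p = 1.2e-10). Of 8 noradrenergic neuroblastoma markers with a probe set 7 passed the filter, with a summed signal of 9325 to 9829 at 0 h and 11380 to 12281 at 72 h, while TH, which makes the first step to catecholamines, read only 0.633 and 3.73. Among markers of other cells, 2 of 5 Schwann or mesenchymal genes (3876 to 4434 at 0 h, 3130 to 3706 at 72 h), 2 of 5 fibroblast, 1 of 4 endothelial, 1 of 4 epithelial and 0 of 4 immune genes passed, and no marker was at 0 on every array. Most of the Schwann or mesenchymal sum was VIM, with a mean of 3979 at 0 h and 3064 at 72 h. FN1, the other gene of that list to pass, went the other way, from 136 to 248. The third arrays of 8 h and 72 h stood apart, with the lowest array weights (0.405 and 0.356) and the highest ACTB ratios (1.30 and 1.35). Where they decide the call of a member against 0 h, the value without them is given with that member. The median change over all genes at 72 h was 0.10 on the log2 scale with the values as deposited, and centring the arrays on their medians made it -0.01.

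SLBP, which binds the histone stem-loop and stays with the mRNA through export and translation, was called lower from 24 h on and had the most negative change of the 9 at 24 h, 48 h and 72 h. Its signal was 1565.6, 1498.5 and 1487.1 on the arrays at 0 h and 1258.9, 1085.8 and 1357.4 at 8 h. It was 920.4, 951.7 and 884.6 at 24 h. By 48 h it read 501.2, 477.0 and 395.3, and at 72 h 362.1, 360.2 and 386.2. The arrays of each time lay wholly below those of the time before, so the means ran in the order of the times, from 1517 ± 42.4 (SD, n = 3) to 369.5 ± 14.5. Relative to 0 h the mean signal was 81.3% at 8 h and 60.6% at 24 h. It then stood at 30.2% by 48 h and at 24.4% by 72 h, which is 4.11-fold lower.

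On the scale of log2(signal + 16), on which all changes are given, the SLBP change against 0 h was -0.30 at 8 h (95% interval -0.49 to -0.11, adjusted p = 0.22), which did not pass the threshold of 0.05. The change was -0.71 at 24 h (adjusted p = 3.3e-05), -1.70 at 48 h (adjusted p = 2.2e-10) and -1.99 at 72 h (adjusted p = 5.5e-12, SE 0.09 at each time). At 48 h 41 of all genes tested had a more negative change, and at 72 h 144 had one. The largest step between neighbouring times was that from 24 h to 48 h, at -0.99 (adjusted p = 4.3e-07), against -0.41 from 8 h to 24 h (adjusted p = 0.010) and -0.29 from 48 h to 72 h (adjusted p = 0.046). The step from 8 h to 24 h lost its call without the third array of 8 h (-0.34, adjusted p = 0.054). In RNA from a whole culture, fewer cells with a transcript and less of it per cell cannot be told apart.

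**Figure D1:**
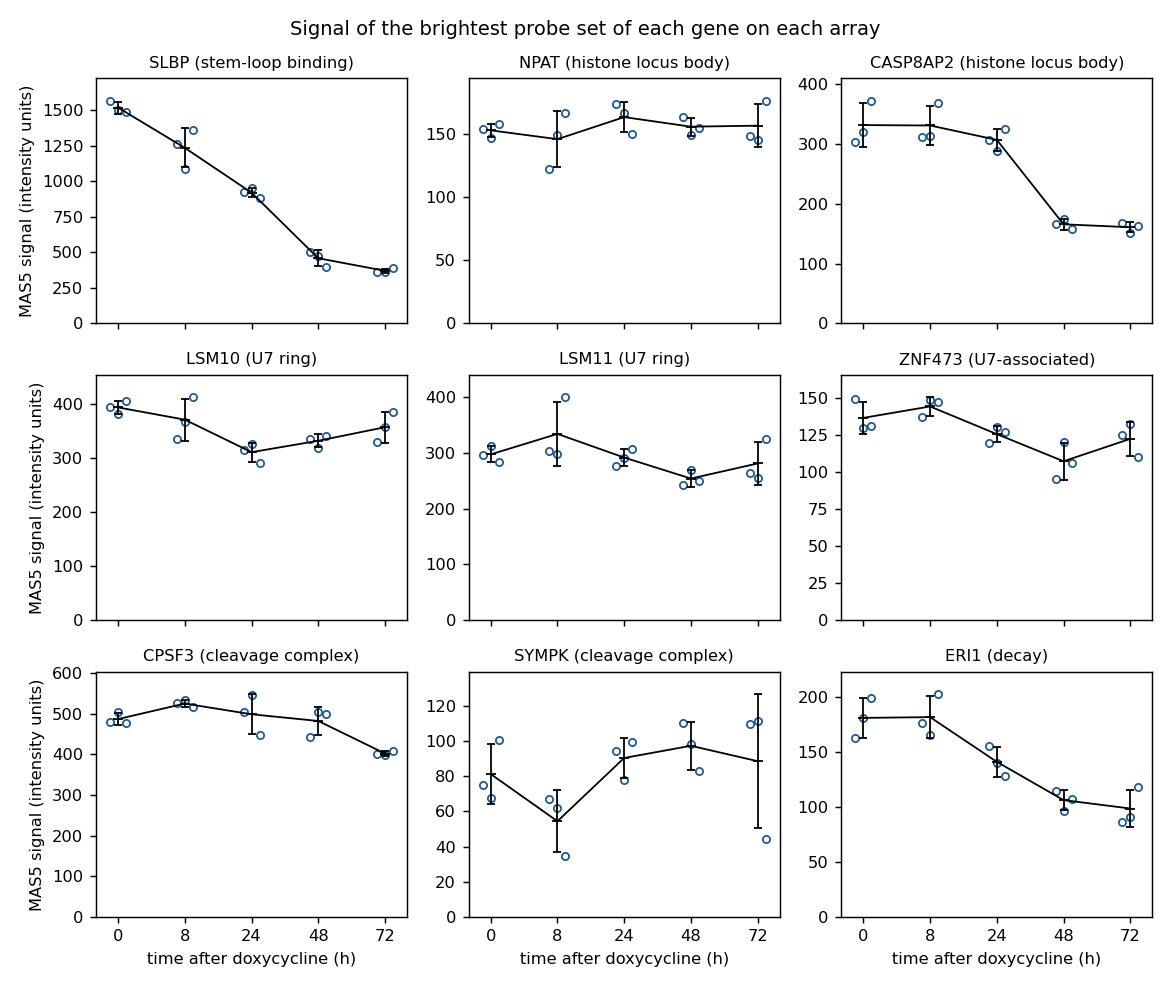
MAS5 signal (intensity units, linear axis from 0) of the brightest probe set of each of the 9 genes against time after doxycycline (h), with circles for the 3 arrays and bars for the mean ± SD. The SLBP arrays of each time lie below those of the time before, the CASP8AP2 arrays of 48 h and 72 h lie below all earlier ones, the ERI1 arrays lie below those of 0 h from 24 h on, and NPAT lies between 121.7 and 176.0 on all arrays.

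CASP8AP2, the FLASH protein of the histone locus body, was not called at 8 h or 24 h and fell between 24 h and 48 h. Its signal was 303.1, 319.2 and 372.3 at 0 h, 311.1, 313.7 and 367.7 at 8 h, and 306.5, 288.6 and 325.3 at 24 h. It was 165.4, 174.5 and 157.0 at 48 h and 167.7, 150.9 and 163.6 at 72 h. The 6 arrays of the last pair of times lay below all 9 earlier arrays, and the earlier groups overlapped each other. The change against 0 h was -0.00 at 8 h (adjusted p = 0.997), -0.10 at 24 h (adjusted p = 0.53), -0.93 at 48 h (adjusted p = 4.2e-07) and -0.97 at 72 h (adjusted p = 1.2e-07, SE 0.09 throughout). The step from 24 h to 48 h was -0.83 (adjusted p = 5.1e-06), while the last step, to 72 h, was -0.04 (adjusted p = 0.85). A second CASP8AP2 probe set had group means between 4.53 and 15.8 and did not pass the filter.

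NPAT, the coactivator of histone genes and a substrate of CDK2, was not called at any time. Its signal was 153.3, 146.9 and 157.5 at 0 h, 121.7, 149.2 and 165.9 at 8 h, and 173.5, 165.9 and 149.7 at 24 h. It was 162.9, 148.8 and 154.7 at 48 h and 148.0, 144.8 and 176.0 at 72 h. Every later group overlapped the 0 h arrays. The change at 72 h was 0.03 with a 95% interval of -0.20 to 0.26 (SE 0.11, adjusted p = 0.85), and the F test over all times gave an adjusted p of 0.75. A second probe set read 117.6, 116.3 and 113.8 at 0 h, 99.3, 134.7 and 38.6 at 8 h, and 118.7, 153.3 and 121.1 at 24 h. It read 103.1, 93.5 and 90.0 at 48 h and 83.8, 92.2 and 99.7 at 72 h. Its 24 h arrays lay above and its 48 h and 72 h arrays below all those of 0 h, unlike those of the first. The changes at these times, 0.15, -0.24 and -0.29 (SE 0.24), were not called (adjusted p = 0.77, 0.46 and 0.34).

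The NPAT gene lies head to head with ATM, the kinase of the response to DNA double-strand breaks, whose annotated starts are 429 and 687 bases away on the opposite strand. ATM read 169.2, 162.0 and 152.9 at 0 h and 364.7, 265.6 and 288.4 at 72 h, with no overlap. It changed by 0.45 at 24 h (adjusted p = 0.023), 0.56 at 48 h (adjusted p = 0.0014) and 0.85 at 72 h (SE 0.12, adjusted p = 1.5e-05), and both other ATM probe sets were also called higher at 72 h, at 0.67 and 0.86. The difference between the changes of NPAT and ATM was not tested. CPSF3 has ITGB1BP1, an integrin adaptor, as its divergent neighbour at 126 and 85 bases, and that gene changed by -0.28 at 48 h (adjusted p = 0.033) and -0.32 at 72 h (adjusted p = 0.013), although its other probe set, at -0.15, was not called.

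LSM10 and LSM11 take the places of SNRPD1 and SNRPD2 in the ring of the U7 snRNP. LSM10 read 394.4, 382.0 and 405.5 at 0 h, 335.0, 366.4 and 412.5 at 8 h, and 314.6, 326.7 and 291.9 at 24 h. It read 336.2, 318.4 and 341.8 at 48 h and 329.0, 357.0 and 386.0 at 72 h. The groups of 24 h and 48 h lay below all 0 h arrays, and that of 72 h overlapped them. The change was -0.33 at 24 h (SE 0.09, adjusted p = 0.018), -0.24 at 48 h (adjusted p = 0.034) and -0.14 at 72 h (adjusted p = 0.19). The 24 h call was lost without 0 h replicate 1 (adjusted p = 0.054), 0 h replicate 3 (adjusted p = 0.065) or 24 h replicate 3 (adjusted p = 0.074), and the 48 h call was lost when any of the 6 arrays of 0 h and 48 h was left out.

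LSM11, which also binds CASP8AP2, was not called on its brightest probe set. That probe set read 296.7, 312.1 and 283.5 at 0 h, 241.9, 270.2 and 250.1 at 48 h, and 263.4, 255.4 and 324.6 at 72 h. The 48 h arrays lay below those of 0 h, at -0.22 (SE 0.11, adjusted p = 0.12), and the 72 h arrays overlapped them, at -0.08 (adjusted p = 0.54). The third arrays of 8 h and 72 h were the highest of their groups here, at 399.7 and 324.6, and without them the 48 h change was called (adjusted p = 0.023). With replicates 1 and 2 only, both were called lower, at -0.24 for 48 h (adjusted p = 0.033) and -0.22 for 72 h (adjusted p = 0.038). Its other 3 probe sets disagreed at 72 h. The change was -0.41 on one (adjusted p = 0.0090) and -0.36 on another (adjusted p = 0.033), both called lower, and 0.11 on the last, which was not called.

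ZNF473, the zinc finger protein that contacts LSM11 and the SLBP-bound stem-loop, read 149.1, 129.4 and 131.1 at 0 h and 137.2, 148.3 and 147.2 at 8 h. The later values were 119.8, 130.1 and 126.8 at 24 h, 95.4, 120.2 and 106.1 at 48 h, and 124.8, 132.5 and 109.8 at 72 h. Only the 48 h arrays lay below all those of 0 h. The change was -0.31 at 48 h (SE 0.10, adjusted p = 0.020), and -0.14 at 72 h (adjusted p = 0.25). The 48 h call was lost without 0 h replicate 1 or 48 h replicate 1 (adjusted p = 0.095 for both) or 48 h replicate 3 (adjusted p = 0.0504). Its dimmer probe set fell at both times, from a mean of 80.1 to 50.5 and 44.8, a change of -0.54 (adjusted p = 0.032) and -0.65 (adjusted p = 0.0078). With the mean of both probe sets the 72 h change of the gene was -0.40 (adjusted p = 0.0034).

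CPSF3, the endonuclease that cuts both histone and polyadenylated pre-mRNAs, was called at 72 h and at no earlier time against 0 h. Its signal was 478.6, 504.4 and 476.4 at 0 h, 525.6, 533.0 and 515.5 at 8 h, and 503.8, 544.9 and 446.2 at 24 h. It was 442.4, 503.0 and 500.0 at 48 h and 399.6, 397.4 and 408.1 at 72 h. The 8 h arrays lay above and the 72 h arrays below all those of 0 h. The change of 0.11 at 8 h was not called, and that at 72 h was -0.27 (SE 0.08, adjusted p = 0.0082). From 48 h to 72 h it was -0.25 (adjusted p = 0.049), and -0.26 without the third arrays of 8 h and 72 h (adjusted p = 0.073, not called).

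SYMPK, the scaffold that joins CPSF3 to the other cleavage factors, was spread widely between arrays and was not called. Its signal was 75.2, 67.8 and 100.7 at 0 h, 66.9, 61.9 and 34.4 at 8 h, and 94.3, 77.6 and 99.3 at 24 h. It was 110.2, 98.6 and 83.2 at 48 h and 109.8, 111.4 and 44.5 at 72 h. The third arrays of 8 h and 72 h held its lowest values. The 72 h change was 0.04 (SE 0.24, adjusted p = 0.90), and without those arrays it was 0.40 (adjusted p = 0.032), called higher. With replicates 1 and 2 alone it was 0.46 at 48 h (adjusted p = 0.011) and 0.53 at 72 h (adjusted p = 0.0031), so the presence of the third arrays decided whether SYMPK was called. The probe sets went opposite ways at 8 h, where all arrays of the brightest lay below those of 0 h (-0.48) and all arrays of another lay above (0.59, adjusted p = 0.31). That other probe set read 48.6, 44.8 and 50.2 at 0 h and 63.5, 103.3 and 78.1 at 8 h, and changed by 0.41 at 72 h (adjusted p = 0.086). The last probe set past the filter changed by -0.02 at 8 h and 0.09 at 72 h, and none of these was called.

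ERI1, the exonuclease that shares the stem-loop with SLBP, was called lower at 48 h and 72 h. Its signal was 162.4, 180.8 and 198.7 at 0 h, 176.2, 165.5 and 202.2 at 8 h, and 154.7, 139.7 and 127.7 at 24 h. It was 114.6, 95.9 and 107.4 at 48 h and 86.5, 90.9 and 117.6 at 72 h. The groups from 24 h on lay below all 0 h arrays, and those of 48 h and 72 h overlapped each other. The change was -0.33 at 24 h (adjusted p = 0.081, not called, but 0.032 and called without the third arrays of 8 h and 72 h), -0.69 at 48 h (adjusted p = 1.6e-04) and -0.79 at 72 h (SE 0.12, adjusted p = 2.3e-05). Its other probe set changed the same way, by -0.89 at 48 h and -1.29 at 72 h, from a mean of 103.0 at 0 h to 32.8. With the mean of both, the 24 h change was -0.46 and was called (adjusted p = 0.0077).

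**Figure D2:**
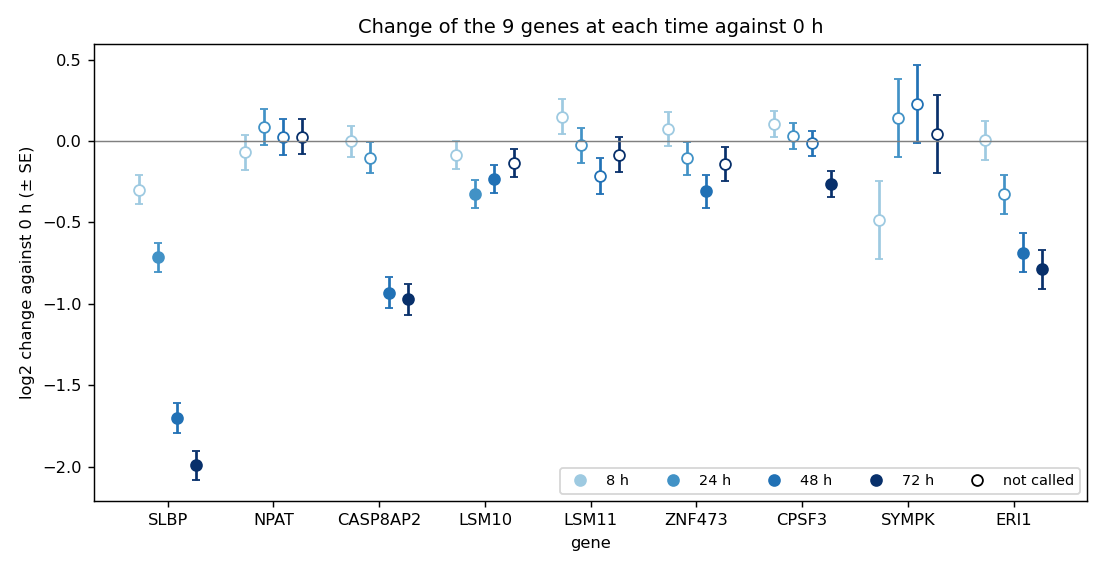
Log2 change (± SE) of each of the 9 genes at 8, 24, 48 and 72 h against 0 h, in limma, with filled points past an adjusted p of 0.05. SLBP reaches -1.99, CASP8AP2 -0.97 and ERI1 -0.79 at 72 h, and no filled point lies above 0.

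Counted over the 9 genes, none was called at 8 h, when 0.45% of all genes were called and 0.357% were called lower. Of the 9, 1 had an unadjusted limma p under 0.05, SLBP. By 24 h 2 were called lower (SLBP and LSM10), against 5.72% of all genes. At 48 h 5 were called lower (SLBP, CASP8AP2, LSM10, ZNF473 and ERI1), 55.6% of the members against 17.7% of all genes. At 72 h 4 were called lower (SLBP, CASP8AP2, CPSF3 and ERI1), 44.4% against 22.7%. No member was called higher at 8, 24, 48 or 72 h, when 0.0934%, 7.74%, 26.3% and 32.8% of all genes were, and none had an unadjusted limma p under 0.05 in that direction. The member median at 72 h was -0.14 against 0.10 for all genes, and these counts do not single out the members, which were picked with earlier results in view.

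As for separation of the arrays, the 3 later arrays all lay below the 0 h arrays for 2 members at 8 h (5.54% of all genes) and 3 at 24 h (14% of all genes). For 48 h the count was 6 (22.5%) and for 72 h 4 (25.1%). At 8 h 1 member, CPSF3, lay wholly above (10.3% of all genes). By the limma test between neighbouring times, 1 member fell from 8 h to 24 h (SLBP, against 3.24% of all genes), 3 from 24 h to 48 h (SLBP, CASP8AP2 and ERI1, against 10.5%) and 2 from 48 h to 72 h (SLBP and CPSF3, against 6.14%). The ERI1 call from 24 h to 48 h, at -0.36 (adjusted p = 0.037), was lost without 24 h replicate 1 (adjusted p = 0.14), 24 h replicate 2 (adjusted p = 0.077), 48 h replicate 2 (adjusted p = 0.14) or 48 h replicate 3 (adjusted p = 0.081). Leaving out any array of 48 h or 72 h ended the call of SLBP, of CPSF3 or of both for the last step, with adjusted p from 0.064 to 0.18 where a call was lost. The F test over all times called 6 of the 9 and 57% of all genes, a share near that of the members. Of the 17 probe sets past the filter 7 were called lower at 48 h (13.8% of all probe sets) and 8 at 72 h (19.3%).

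**Figure D3:**
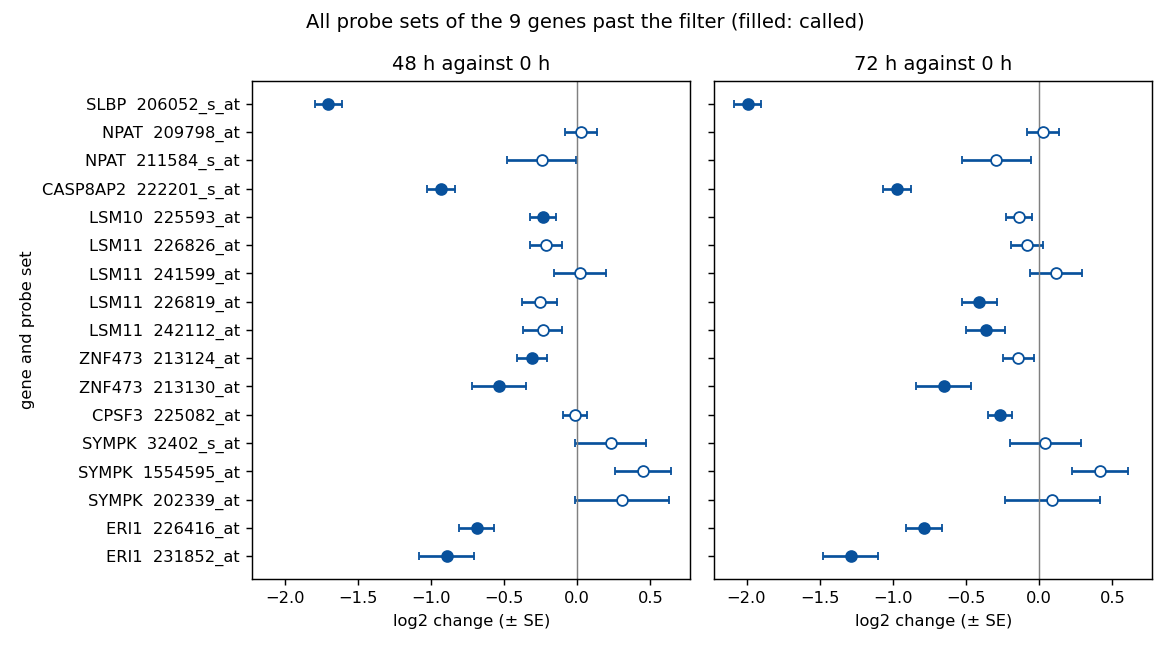
Log2 change (± SE) at 48 h and 72 h against 0 h for the 17 probe sets of the 9 genes that passed the filter, filled where limma called them over all 27307 probe sets. Both ERI1 probe sets lie below 0 at both times, and the LSM11 probe sets lie on both sides of 0 at 72 h.

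The machinery of which the members are part was described by 7 gene lists, each of which is set beside the shares of all genes called at 24 h, 48 h and 72 h, which were 5.72%, 17.7% and 22.7% lower and 7.74%, 26.3% and 32.8% higher. In the U7 and Sm ring list, 14 of 15 genes were tested, and 2, 9 and 9 of them were called lower at 24 h, 48 h and 72 h, with none higher at those times, also by an unadjusted limma p under 0.05. That is 14.3%, 64.3% and 64.3% of the list, and without LSM10 and LSM11 1, 8 and 9 of 12 were lower. The median was -0.34 at 72 h, against 0.10 for all genes. The Sm proteins SNRPD1 (-0.71, adjusted p = 2.0e-07), SNRPF (-0.57) and SNRPG (-0.56) and GEMIN5 (-0.84), which recognises snRNAs for assembly, had the greatest changes. SNRPD1 sits in the spliceosomal ring where LSM10 sits in the U7 ring. GEMIN5 was already lower at 24 h (-0.68, adjusted p = 1.6e-04).

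Of 19 cleavage and polyadenylation factors, CPSF3 and SYMPK included, 6 were called higher (31.6%) and 2 lower (10.5%) at 48 h, and 4 higher (21.1%) and 5 lower (26.3%) at 72 h. The greatest fall was that of NUDT21, the CFIm subunit that guides the choice of poly(A) site, from 1378.8, 1382.5 and 1190.3 at 0 h to 367.3, 382.9 and 313.5 at 72 h. Its change was -1.09 at 24 h, -1.44 at 48 h and -1.85 at 72 h (SE 0.10, adjusted p = 8.5e-11), and both its other probe sets were called lower at 72 h. PABPN1, which coats new poly(A) tails, rose by 0.65 (adjusted p = 0.0064) and PCF11 by 0.41 (adjusted p = 0.0016) at 72 h. The other PCF11 probe set, at 0.21, was not called. CSTF3 was 0.50 higher on its brightest probe set and 0.46 and 0.45 lower on its other probe sets, so its direction depends on the probe set.

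Of 18 genes tested for the histone locus body and histone transcription, 10 were called lower (55.6%) and 1 higher (5.56%) at 48 h, and 8 lower (44.4%) and 4 higher (22.2%) at 72 h. These counts include the hairpin target CDK2 and the members NPAT, CASP8AP2 and ZNF473, and without the 3 members 8 and 7 of 15 were lower. The greatest changes at 72 h were those of CDK2, CCNE2 (-2.43), the cyclin E2 partner of CDK2, E2F2 (-1.85) and E2F1 (-1.64). The part of cell-cycle position in the falls of SLBP and CASP8AP2 was not tested. The cap-binding and elongation list had 11 genes tested, with 6 lower (54.5%) and 2 higher (18.2%) at 48 h. At 72 h 4 genes of this list were lower (36.4%) and 3 higher (27.3%). In it the cap-binding subunit NCBP1 fell (-0.55) and its partner NCBP2 rose (0.36, its other probe set at 0.06 not called), while SSRP1, part of the FACT histone chaperone, fell (-0.69) and the elongation factor SUPT5H rose (0.49). Among 24 genes of histone mRNA decay, ERI1 included, 10 were called lower (41.7%) and 5 higher (20.8%) at 48 h. At 72 h 13 of them were called lower (54.2%) and 6 higher (25%). LSM4 and LSM6, subunits of the ring that binds the oligouridylated tail, each changed by -0.98, and DIS3L2, an exonuclease for uridylated RNA, by 1.39, although only 1 of its 3 other probe sets was called higher.

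The list of SLBP regulators and partners had 12 genes tested, with 5 lower (41.7%) and 3 higher (25%) at 48 h. The counts were the same at 72 h, with a median of 0.00. CCNA2 (-2.40) and CDK1 (-3.19), whose proteins mark SLBP for destruction at the end of S phase, fell, as did WEE1 (-1.74) and CCNF (-0.86), the receptor that targets SLBP to the proteasome in G2. CCNF stood higher before its fall, at 0.44 by 8 h and 0.34 by 24 h, with neither change called in the fit reported. In the fit reported none of CCNA2, CDK1, WEE1 and CCNF was called at 24 h, when SLBP was. Of 20 alternative runs, 4 called CCNF higher and 1 called CCNA2 lower at 24 h. The difference in timing was not tested.

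**Figure D4:**
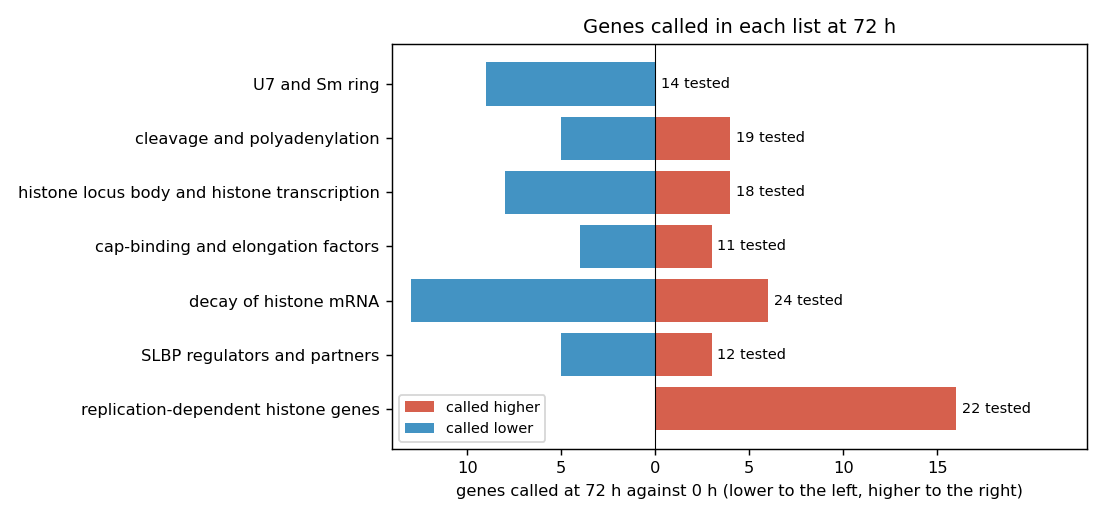
Number of genes called lower (left) and higher (right) by limma at 72 h against 0 h in each of the 7 lists, with the number tested beside each bar. The U7 and Sm ring list has 9 lower and 0 higher of 14, and the histone gene list 0 lower and 16 higher of 22. Those 22 histone genes passed a filter that takes in genes bright only late.

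The targets of this machinery are the replication-dependent histone genes, and most of those that passed the filter read higher at the late times. Of 42 such genes 22 passed the filter, and 2, 12 and 16 were called higher at 24 h, 48 h and 72 h, with none lower (1, 0 and 0 with an unadjusted limma p under 0.05 in that direction). At 72 h 32.8% of all genes were called higher. The filter takes in genes that are bright only late, so this count is no share of all histone genes. The direction and the median change are tied to that filter as well, and the genes that did not pass were not tested. The changes at 72 h ran from -0.37 to 4.21 with a median of 1.25, and 14 exceeded 1 on the log2 scale.

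H2AC25 read 61.1, 41.8 and 68.2 at 0 h, 709.8, 593.3 and 894.5 at 48 h, and 1091.0, 1140.7 and 1850.1 at 72 h, a change of 4.21 at 72 h (SE 0.19, adjusted p = 4.8e-12). H2AC6 changed by 3.99, H2BC5 by 3.28 and H2BC12 by 2.83. The groups of 0 h and 72 h did not overlap for H2AC25, and the third array of 72 h was its highest. The target preparation primes from the poly(A) tail, which normal histone mRNA lacks, so a signal here does not measure all histone mRNA. Several histone genes, H2AC6, H2BC5 and H2BC12 among them, are known to give longer polyadenylated transcripts as well. Whether the rise lies in such transcripts was not tested, and 9 of the 22 genes lie on probe sets of a type that can match several near-identical copies.

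**Figure D5:**
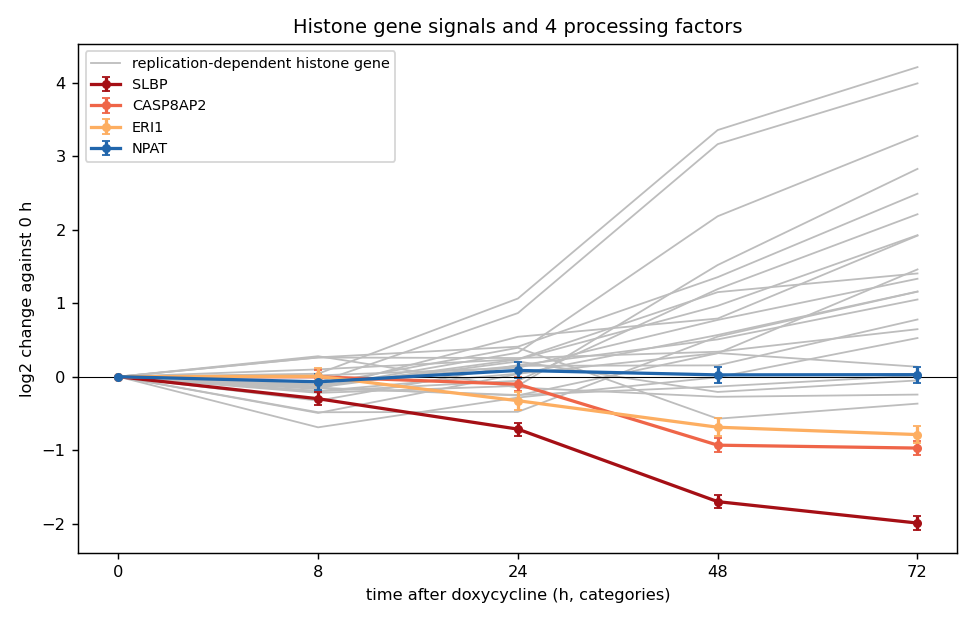
Log2 change against 0 h at each time (h, as categories) of the 22 histone genes tested (grey lines) and of SLBP, CASP8AP2, ERI1 and NPAT (colours, ± SE). By 72 h the histone lines spread from -0.37 to 4.21, while SLBP ends at -1.99, CASP8AP2 at -0.97 and NPAT at 0.03.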

How the data were processed

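Total RNA (4 µg per array, one-cycle labelling) was measured on 15 arrays. The deposited values are linear signal intensities per probe set, made by the authors with MAS5 and GCOS per the submitters' processing notes, with versions not given in the sources used here. MAS5 scales each array to 1 mean and subtracts mismatch signal, so low values are noisy and a shift shared by most genes is removed. Values were used as deposited, as log2(signal + 16). A probe set entered if its mean over all arrays reached the median over non-control probe sets, at a signal near 16.6, as 27307 did, and the brightest probe set naming only 1 gene stood for the gene. Of the probe sets 41091 name 1 gene, 1801 several and 11721 none.

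A limma 3.58.1 fit (lmFit, eBayes with trend, R 4.3.3) held all 5 times, after a test on simulated data. Comparisons were each time against 0 h, neighbouring times, and an F test. Benjamini-Hochberg adjustment ran over the 11774 genes (or 27307 probe sets), with a threshold of 0.05. The members, lists and rules for naming genes were chosen with earlier results of these data known. From each list, up to 4 genes past the threshold with the greatest change at 72 h are named. RefSeq windows came from GRCh38.p14. Tables and figures used Python 3.11.15, pandas 2.3.3 and matplotlib 3.10.9.

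The labels do not state that replicate numbers pair arrays. Same-numbered arrays had residual correlations of -0.08 to 0.35 in 30 pairs (median 0.12, 21 pairs over 0.1). Differently numbered arrays had a median of -0.08, with 6 of 60 pairs over 0.1. All 3 same-numbered pairs exceeded 0.1 for 48 h with 0 h and for 72 h with 48 h. The fit reported has no block, so a fit with the replicate number as a block was also run. Other alternatives changed the pseudocount, scaling, filter, probe set rule, variance prior, array weights and the arrays used.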

Additional observations from a re-analysis of the deposited data

How the results depend on the processing

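Against 0 h, the calls of SLBP, CASP8AP2 and ERI1 at 48 h and 72 h held in every alternative run. Those of SLBP at 24 h and of CPSF3 at 72 h did as well. The count of members called from 48 h to 72 h, 2 in the fit reported, was 1 with a pseudocount of 1 or 64, without the third arrays of 8 h and 72 h or with replicates 1 and 2 only. It was 0 with centred arrays, no filter, probe sets tested singly, no variance trend or only the arrays of the groups compared. At 8 h, replicates 1 and 2 only gave 1 call, SLBP (-0.38, adjusted p = 0.040). Leaving out 1 array at a time gave 0 to 0 calls at 8 h, 1 to 2 at 24 h, 3 to 4 at 48 h and 4 to 4 at 72 h. For neighbouring times it gave 0 to 1 (8 h to 24 h), 2 to 3 (24 h to 48 h) and 0 to 1 (48 h to 72 h), and for the F test 4 to 8. CSTF3 at 72 h turned to -0.14 with the mean of its probe sets. The cause of these shifts was not tested. Where arrays were left out, the number of arrays and the choice of arrays changed together. The replicate block gave 0, 2, 5 and 4 members at 8, 24, 48 and 72 h against 0 h, the same as without the pairing, and 7 rather than 6 in the F test, LSM11 being added. With 3 arrays a group, the calls of LSM10 and ZNF473 did not outlast the loss of single arrays.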

Other observations

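Across the 15 arrays, the genes whose log2 signal followed each member most closely (Pearson's r, as a description over arrays that share their times) were FAM162B (0.993), UNG (0.993) and ZWILCH (0.989) for SLBP. UNG is the uracil-DNA glycosylase and ZWILCH a kinetochore protein. For CASP8AP2 they were CDC25A (0.985), the phosphatase that activates CDK2, CLSPN (0.985), the checkpoint adaptor claspin, and DNAJC9 (0.982), a chaperone for histone H3 and H4. For ERI1 they were PSAT1 (0.980), an enzyme of serine synthesis, PRELID1 (0.979) and NAPA (0.978). For LSM11 the closest was COIL (0.954), the coilin of Cajal bodies, followed by ZBTB2 (0.898) and CNOT9 (0.896), and the change of COIL itself at 72 h was -0.00.

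For the remaining members the closest gene reached 0.820 to 0.923. These genes were ZCCHC2 (0.922), DDX21 (0.918) and CNOT7 (0.915) for LSM10, NDUFAF3 (0.923), RUNX1T1 (0.918) and HYCC1 (0.918) for CPSF3, and SEC22C (0.889), PHKG2 (0.886) and SLC24A3 (0.853) for ZNF473. For SYMPK they were PDCD6P1 (0.884), ZFAND3 (0.881) and NRBP1 (0.866), and for NPAT IDH1 (0.820), IK (0.818) and MINAR1 (0.772). Among the members themselves SLBP ran with CASP8AP2 (0.953) and ERI1 (0.937), and CASP8AP2 with ERI1 (0.907). In contrast, SLBP and NPAT gave -0.134 and LSM11 and SYMPK -0.861. SLBP, CASP8AP2 and ERI1 had the largest falls of the members at 72 h, and genes outside the members followed each of them more closely. On the third arrays of 8 h and 72 h LSM11 was at its highest (399.7 and 324.6) and SYMPK at its lowest (34.4 and 44.5). Those arrays also enter the r of LSM11 with COIL, and neither r was computed without them.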
